A study of Mus musculus with 12 samples.

Results

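The genes described here are 46 genes of glucose metabolism, chosen by name from the textbook pathways of glucose uptake, glycolysis, lactate exchange, pyruvate dehydrogenase control, the pentose phosphate pathway and gluconeogenesis. They were 46 of the 34836 gene names on the arrays and were read by 67 of 55681 probes. Of these, 42 genes gave signals well above background on every array of some group and were tested. The other 4 were not tested: *Slc2a2*, the glucose transporter of liver and pancreatic islets, *Pklr*, the pyruvate kinase of liver and red cells, and *G6pc*, which releases free glucose in liver, were well above background on no array, and *Hk3*, a hexokinase of blood cells, on 1.

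RNA came from mouse embryonic stem (ES) cells that carry *Gata6GR*, a fusion of mouse *Gata6* with the ligand-binding part of the human glucocorticoid receptor, which dexamethasone (Dex) moves to the nucleus. In the *Sox7* (+/−) line 1 allele of *Sox7*, a transcription factor of the extraembryonic endoderm, had its coding sequence replaced by a puromycin resistance cassette. The *Sox7* (−/−) line was derived from it by high-dose puromycin, so that both alleles are lost and each genotype is a single clonal line. Genotype and clone therefore cannot be told apart, and the arrays of a group come from the same line. Each line was cultured without Dex (ES cells) or with Dex for 4 days (XEN-like cells, named after extraembryonic endoderm cells), in ES medium with serum, sodium pyruvate and leukemia inhibitory factor, and each of the 4 groups had 3 arrays. No group had both *Sox7* alleles intact, and no Dex-treated cells lacked *Gata6GR*, so activation of Gata6 and effects of Dex through the cells' own receptor cannot be told apart.

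Cells take up glucose through Slc2a transporters, trap it with hexokinase and split it through glycolysis into pyruvate, which lactate dehydrogenase turns into lactate or pyruvate dehydrogenase feeds into mitochondria. The step at phosphofructokinase is set by fructose-2,6-bisphosphate, which the Pfkfb enzymes make and remove, and pyruvate dehydrogenase is switched off by the Pdk kinases. The pentose phosphate pathway draws off glucose-6-phosphate for NADPH and ribose, and gluconeogenesis runs back to glucose through Pck, Fbp and G6pc. Most steps have several isoforms from separate genes, of which some are made in nearly all cells and others mainly in muscle, liver or kidney. Mouse ES cells are known for high glycolytic activity.

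Values are given as relative signal, the background-subtracted signal of a gene's brightest probe divided by the 75th percentile of its array, and these values are not comparable between genes. Differences are log2 differences from 1 limma fit of all 12 arrays, and a gene is called higher or lower, or said to have risen or fallen, at a Benjamini-Hochberg adjusted p under 0.05 over all 25938 probes tested and a change over 2-fold. The 75th percentile lay between 252.3 and 415.9 units per array, and the number of arrays limits the precision. The *Sox7* probe read 2.18 to 2.29 in *Sox7* (+/−) ES cells and 4.9 to 6.88 in *Sox7* (+/−) XEN-like cells, and it was not well above background on any *Sox7* (−/−) array. Of 8 ES cell markers, 6 fell and 1 rose with Dex in *Sox7* (+/−) and 7 fell in *Sox7* (−/−) cells, and of 8 extraembryonic endoderm markers 6 and 7 rose. The third *Sox7* (+/−) XEN-like array stood apart: 22 of the 42 genes lay over 0.3 (log2) from the mean of the other arrays of its group there, against 0 to 10 genes on each of the other arrays. In the sample sources, all 3 *Sox7* (+/−) ES arrays carry the same replicate number, so whether they are separate samples is not known, and p-values then measure only the spread between these arrays.

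Promoters are shown for *Ldha*, *Ldhb*, *Slc16a1*, *Pdk4* and *Pck1*, as examples of isoforms and of differences between genotypes, picked with the results known. Other such genes, among them *Fbp1*, *Pfkm* and *Pfkp*, are not shown. The sequence given is the 250 bases before the start of the gene in RefSeq (GRCm38.p6). Of the 46 genes, 45 had an entry and 14 had several starts, 66 in all; for *Ldha* the first is shown. Capitals mark ACGTG, the core of the sequence bound by hypoxia-inducible factors, which also lies within the CACGTG bound by Myc, and AGATAA, known to be bound by Gata factors, on either strand.
*Ldha* (chr7:46845554-46845803, + strand): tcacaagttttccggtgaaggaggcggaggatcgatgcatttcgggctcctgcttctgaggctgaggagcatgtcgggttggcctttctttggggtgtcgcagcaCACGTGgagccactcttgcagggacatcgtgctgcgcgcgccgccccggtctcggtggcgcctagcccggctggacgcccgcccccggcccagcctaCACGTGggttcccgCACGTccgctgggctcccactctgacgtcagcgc
*Ldhb* (chr6:142507958-142508207, − strand): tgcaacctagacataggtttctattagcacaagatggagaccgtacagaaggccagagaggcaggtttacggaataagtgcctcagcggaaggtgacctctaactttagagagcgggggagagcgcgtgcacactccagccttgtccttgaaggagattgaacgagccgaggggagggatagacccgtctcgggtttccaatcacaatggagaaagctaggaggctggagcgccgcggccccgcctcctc
*Slc16a1* (chr3:104638414-104638663, + strand): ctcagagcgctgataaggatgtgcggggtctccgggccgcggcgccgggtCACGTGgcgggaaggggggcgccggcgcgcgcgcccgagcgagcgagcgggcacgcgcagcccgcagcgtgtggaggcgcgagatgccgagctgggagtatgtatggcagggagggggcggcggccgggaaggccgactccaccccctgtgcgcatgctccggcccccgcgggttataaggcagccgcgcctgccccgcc
*Pdk4* (chr6:5496279-5496528, − strand): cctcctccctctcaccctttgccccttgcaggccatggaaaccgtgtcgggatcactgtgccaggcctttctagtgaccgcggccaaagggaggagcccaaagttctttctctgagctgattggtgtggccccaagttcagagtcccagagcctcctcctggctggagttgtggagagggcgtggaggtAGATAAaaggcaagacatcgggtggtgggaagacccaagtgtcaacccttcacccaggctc
*Pck1* (chr2:173152823-173153072, + strand): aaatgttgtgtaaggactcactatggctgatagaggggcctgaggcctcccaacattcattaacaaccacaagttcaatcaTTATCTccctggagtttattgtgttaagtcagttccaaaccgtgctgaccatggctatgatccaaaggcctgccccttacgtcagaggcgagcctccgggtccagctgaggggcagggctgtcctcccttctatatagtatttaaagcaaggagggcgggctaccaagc

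The shown *Ldha* promoter held 3 separate stretches with ACGTG and the *Slc16a1* promoter held 1, while *Ldhb* held none of these letters. The other *Ldha* start, not shown, held no ACGTG either. *Pdk4* and *Pck1* each held 1 AGATAA. Over the 66 promoters, 31.8% held ACGTG, against 16.6% of all 32851 promoters, and 10.6% held CACGTG, against 6.02%. AGATAA was in 15.2% against 9.99%, and the other 3 motifs searched were AACAAT (SOX, 4.55% against 9.42%), AGAACA (glucocorticoid receptor, 18.2% against 16.1%) and AAGGTCA (Esrrb, 4.55% against 4.08%). These are matches of letters only.

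With Dex, 10 of the 42 genes were called in *Sox7* (+/−) cells, 2 higher (*Pfkm* and *Slc16a1*) and 8 lower. Over all probes 11% were called higher and 14% lower. In *Sox7* (−/−) cells 13 genes were called, 5 higher and 8 lower, against 14.6% and 14.2% of all probes. The median change of the 42 genes was 0.01 and −0.15 (log2), against 0.16 and 0.07 over all probes. All 9 genes called in both genotypes moved the same way in both: *Pfkm* and *Slc16a1* rose, and *Pfkp*, *Pgam2*, *Ldhb*, *Pdk1*, *Pdk4*, *Fbp1* and *Fbp2* fell. *Eno3* was called in *Sox7* (+/−) cells alone, and *Pfkfb4*, *Pdk2*, *Pck1* and *Pck2* in *Sox7* (−/−) cells alone; whether these responses differ between genotypes is tested further on. Of 30 genes with an adjusted p under 0.05 in *Sox7* (+/−) cells, whatever the size of the change, 10 turned from higher to lower with spike-in scaling and with the table of processed values alike (*Slc2a3*, *Hk1*, *Gpi1*, *Pfkfb1*, *Aldoa*, *Pgk1*, *Bpgm*, *Slc16a3*, *Pdk3* and *Tkt*). None of the 10 was called, and the small positive values given for them below have no settled direction. The table of processed values holds mean spot signals, used here without background subtraction or scaling between arrays. Its changes therefore also follow array brightness. In such bulk RNA, fewer cells of a type and less RNA per cell cannot be told apart.

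**Figure D1:**
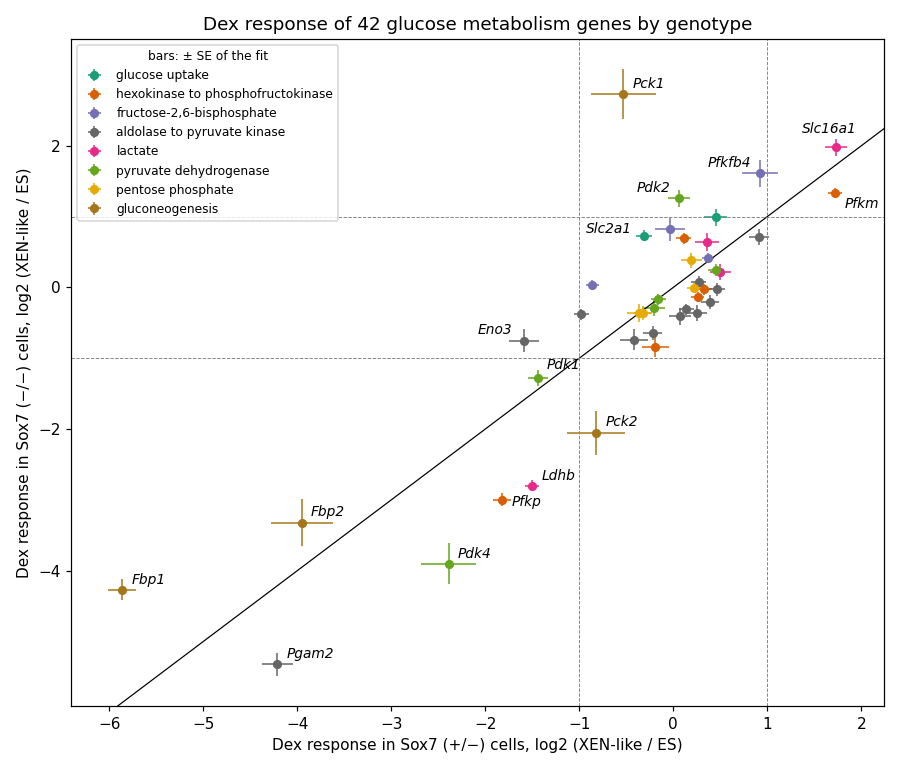
Log2 change with Dex (XEN-like over ES) of the 42 tested genes in *Sox7* (+/−) cells (horizontal) and *Sox7* (−/−) cells (vertical); points are fitted values with bars of ± 1 SE, coloured by role, with dashed lines at 2-fold and a solid line where the responses are equal. *Pfkp*, *Ldhb*, *Pdk4* and *Pgam2* lie below the line at the lower left, *Pck1* stands alone at the top, at a fitted position that rests mostly on arrays not well above background, and most genes lie within the dashed square.

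The enzymes from aldolase to lactate dehydrogenase, the part of glycolysis that yields ATP and pyruvate, changed by under 2-fold with Dex for a widely expressed isoform of each of the 8 steps. *Tpi1*, triose phosphate isomerase, had the largest change of these in *Sox7* (+/−) cells, 0.91 ± 0.11 (log2 ± SE). In *Sox7* (−/−) cells it changed by 0.71 ± 0.11, and *Eno1* by a little more in the other direction. The relative signal of *Tpi1* was 65.8, 71.8 and 63.9 in *Sox7* (+/−) ES cells and 115, 114 and 153 after Dex. *Gapdh*, the glyceraldehyde-3-phosphate dehydrogenase often used as a reference gene, changed by 0.14 ± 0.077 and −0.31 ± 0.077 on its brightest probe. Its other 6 probes gave −0.16 to −0.03 and −0.67 to −0.48, all lower than that probe in either genotype. *Aldoa*, the main aldolase, changed by 0.27 ± 0.077 and 0.08 ± 0.077. For *Eno1*, the common enolase, the values were −0.42 ± 0.15 and −0.74 ± 0.15, and for *Pkm*, the pyruvate kinase of most tissues, −0.22 ± 0.1 and −0.64 ± 0.1. *Pgk1* and *Pgam1*, the next kinase and mutase of the chain, changed by 0.39 ± 0.1 and 0.07 ± 0.12 in *Sox7* (+/−) cells and by −0.21 ± 0.1 and −0.41 ± 0.12 in *Sox7* (−/−) cells. The brightest *Pgk1* probe maps to chromosome 3 rather than X, where the gene lies, so it may read a related copy. A dimmer *Pgk1* probe that maps to chromosome X gave similar changes, 0.41 ± 0.085 and −0.22 ± 0.085. For *Tpi1*, *Pgam1*, *Eno1*, *Pkm* and *Ldha* the third *Sox7* (+/−) XEN-like array read well above the other arrays of its group, for example 309 against 193 and 206 for *Eno1*. The isoform taken for each step was chosen after the values were seen.

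**Figure D2:**
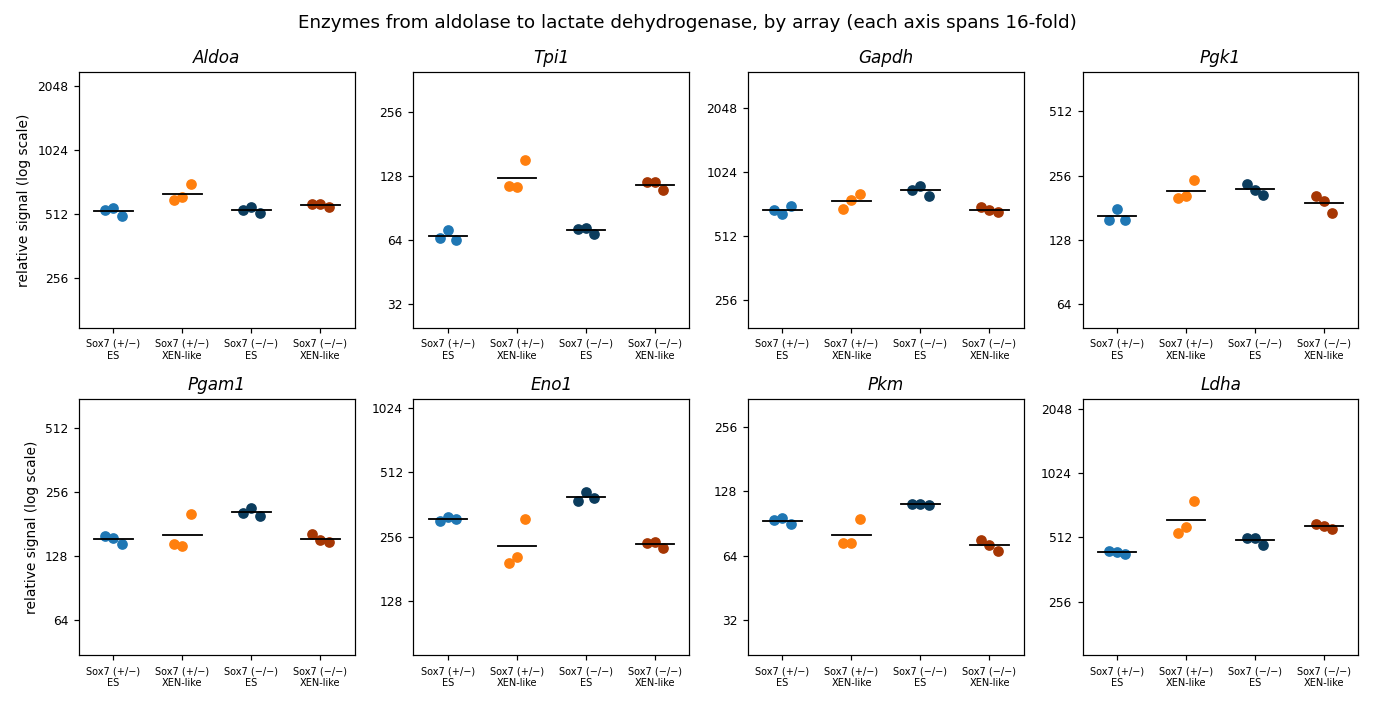
Relative signal (log scale, each axis spanning 16-fold) of 8 enzymes on the 12 arrays, 1 panel per enzyme and 3 points per group, with a line at the geometric mean. All points of a panel lie within a narrow band; *Tpi1* is higher in XEN-like than in ES cells of either genotype, and the third *Sox7* (+/−) XEN-like array is the highest of its group for *Eno1* (309) and *Ldha* (763).

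Among the muscle isoforms of these steps, *Pgam2* and *Eno3* fell. For *Pgam2*, the phosphoglycerate mutase of muscle, the relative signal was 2.01, 1.98 and 1.72 in *Sox7* (+/−) ES cells and 0.119, 0.121 and 0.0762 after Dex. The *Sox7* (−/−) values went from 8.15, 8.39 and 7.44 to 0.223, 0.188 and 0.192. No array of XEN-like cells overlapped with ES cells, and 1 *Sox7* (+/−) XEN-like array was not well above background. The fall was 18.5-fold in *Sox7* (+/−) (log2 −4.21 ± 0.16, adjusted p = 9.9e-09) and 39.9-fold in *Sox7* (−/−) cells (−5.32 ± 0.16, adjusted p = 1.5e-09). *Eno3*, the muscle enolase, read 3.32, 3.44 and 3.48 in *Sox7* (+/−) ES cells and 1.33, 1.32 and 0.828 after Dex, a 3.01-fold fall (−1.59 ± 0.16, adjusted p = 1.1e-05). The *Sox7* (−/−) values were 2, 2.13 and 1.9 in ES cells and 1.29, 1.17 and 1.13 after Dex, a change of −0.75 ± 0.16 that did not reach 2-fold. *Aldoc*, the brain aldolase, changed by −0.98 ± 0.08 and −0.38 ± 0.08, and *Eno2*, the neuronal enolase, by 0.25 ± 0.11 and −0.36 ± 0.11, neither called in either genotype. *Bpgm*, which makes the red cell effector 2,3-bisphosphoglycerate, changed by 0.46 ± 0.086 and −0.03 ± 0.086.

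The 3 phosphofructokinase genes, which catalyse the committed step of glycolysis, went different ways. *Pfkm*, the muscle subunit, read 5.49, 5.54 and 4.99 in *Sox7* (+/−) ES cells and 17, 16.9 and 18.7 after Dex. On *Sox7* (−/−) arrays the values were 5.76, 5.86 and 5.72, and 15.2, 15 and 13.6. It rose 3.29-fold (1.72 ± 0.074, adjusted p = 2e-08) and 2.52-fold (1.33 ± 0.074, adjusted p = 9.7e-08), with no overlap between ES and XEN-like arrays. *Pfkp*, the platelet subunit, fell from 4.89, 4.91 and 5.5 to 1.47, 1.48 and 1.39 in *Sox7* (+/−) cells, 3.52-fold (−1.82 ± 0.093, adjusted p = 6.8e-08). It fell from 11.6, 11.3 and 11.9 to 1.65, 1.29 and 1.42 in *Sox7* (−/−) cells, 8-fold (−3 ± 0.093, adjusted p = 1.5e-09). A second, dimmer *Pfkp* probe changed by only −0.12 and −0.44 and was not called, so the 2 probes disagree, and the mean of the *Pfkp* probes gave −0.97 in *Sox7* (+/−) cells, under 2-fold. *Pfkl*, the liver subunit, changed by 0.11 ± 0.082 and 0.69 ± 0.082 and was not called. *Hk1*, the hexokinase of most cells, changed by 0.26 ± 0.071 and −0.14 ± 0.071, and *Hk2*, the inducible hexokinase, by −0.19 ± 0.14 and −0.84 ± 0.14. The other *Hk1* probes, both dimmer, disagreed with it, with −0.43 and −0.67 in *Sox7* (+/−) and −0.96 and −0.72 in *Sox7* (−/−) cells, and between the genotypes in XEN-like cells the first of them was called lower in *Sox7* (−/−) cells (−1.04 ± 0.075, adjusted p = 7.5e-06). *Gpi1*, which turns glucose-6-phosphate into fructose-6-phosphate, changed by 0.33 ± 0.081 and −0.03 ± 0.081.

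Of the 4 Pfkfb enzymes only *Pfkfb4* was called with Dex, and only in *Sox7* (−/−) cells. It went there from 0.483, 0.42 and 0.415 to 1.43, 1.22 and 1.37, a 3.05-fold rise (1.61 ± 0.19, adjusted p = 2.8e-05). In *Sox7* (+/−) cells it went from 0.483, 0.46 and 0.555 to 0.868, 0.73 and 1.33 (0.92 ± 0.19), and the difference between the genotypes, 0.69 ± 0.27, was not called (adjusted p = 0.082). *Pfkfb3*, the isoform that favours making fructose-2,6-bisphosphate, read 3.99, 4.42 and 4.11 in *Sox7* (+/−) ES cells and 2.37, 2.25 and 2.28 after Dex (−0.86 ± 0.073). In *Sox7* (−/−) cells it read 1.83, 1.72 and 1.8 before and 1.95, 1.68 and 1.82 after Dex (0.03 ± 0.073). The genotypes did not overlap in ES cells, where *Sox7* (−/−) cells were lower. *Pfkfb1* changed by 0.37 ± 0.061 and 0.42 ± 0.061, and *Pfkfb2* by −0.04 ± 0.16 and 0.82 ± 0.16.

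At lactate dehydrogenase the isoforms parted. *Ldha*, the muscle-type subunit common in glycolytic cells, read 443, 436 and 428 in *Sox7* (+/−) ES cells and 537, 571 and 763 after Dex (0.50 ± 0.11, not called), and changed by 0.22 ± 0.11 in *Sox7* (−/−) cells. *Ldhb*, the heart-type subunit, read 45.3, 45.4 and 42 in *Sox7* (+/−) ES cells and 15.4, 14.9 and 16.7 after Dex. The *Sox7* (−/−) arrays went from 90, 90.1 and 83.5 to 13.5, 12.2 and 12.1. These falls were 2.83-fold (−1.5 ± 0.075, adjusted p = 5.9e-08) and 6.98-fold (−2.80 ± 0.075, adjusted p = 5.4e-10). *Slc16a1*, the lactate and pyruvate carrier Mct1, read 0.142, 0.158 and 0.178 in *Sox7* (+/−) ES cells and 0.543, 0.61 and 0.436 after Dex. Its *Sox7* (−/−) values were 0.125, 0.138 and 0.134, and 0.509, 0.534 and 0.522. It rose 3.31-fold (1.73 ± 0.12, adjusted p = 8.2e-07) and 3.95-fold (1.98 ± 0.12, adjusted p = 2.2e-07), with all XEN-like arrays above all ES arrays. With the table of processed values, the *Slc16a1* change in *Sox7* (+/−) cells was 0.84, under 2-fold. *Slc16a3*, the carrier Mct4 known for lactate export, changed by 0.36 ± 0.13 and 0.64 ± 0.13 and was not called. Beside these, *Slc2a3*, a high-affinity glucose transporter, changed by 0.45 ± 0.12 and 0.99 ± 0.12, just under 2-fold in *Sox7* (−/−) cells.

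The Pdk kinases, which shut pyruvate dehydrogenase, gave 3 patterns. *Pdk1* fell in both genotypes, from 3.73, 3.64 and 3.44 to 1.33, 1.59 and 1.11 (2.71-fold, −1.44 ± 0.11, adjusted p = 1.5e-06) in *Sox7* (+/−) and from 5.99, 5.81 and 5.74 to 2.49, 2.43 and 2.33 (2.42-fold, −1.28 ± 0.11, adjusted p = 2.9e-06) in *Sox7* (−/−) cells. *Pdk4*, the isoform known to rise in fasting and with glucocorticoids in muscle and liver, read 0.401, 0.369 and 0.332 in *Sox7* (+/−) ES cells and was not well above background on any *Sox7* (+/−) XEN-like array. It was at least 3.35-fold lower there (adjusted p = 4.2e-05). Such a bound sets the bright group against the lowest signal that was well above background on each dim array, or the probe's own if higher. Normexp background correction gave −0.85 for *Pdk4*, under 2-fold. That correction added an offset of 50 units to every signal, which shrinks changes of dim genes. In *Sox7* (−/−) cells *Pdk4* went from 0.897, 0.855 and 0.927 to 0.0474, 0.0493 and 0.0913, where 1 of 3 arrays was well above background. It was called lower (adjusted p = 8.2e-07), but the size of the fall is not settled, since the fit gave −3.90 and normexp −2.11. *Pdk2* read 0.877, 1.03 and 0.85 in *Sox7* (+/−) ES cells and 1.02, 1.02 and 0.832 after Dex, and these arrays overlapped (0.06 ± 0.12). In *Sox7* (−/−) cells it rose from 0.887, 0.955 and 0.772 to 2.21, 2.16 and 1.9, with no overlap (2.4-fold, 1.26 ± 0.12, adjusted p = 5.6e-06). *Pdk3* changed by 0.45 ± 0.085 and 0.24 ± 0.085, and the enzyme's own subunits *Pdha1* and *Pdhb* by −0.29 to −0.16 in either genotype, none called.

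None of the 4 pentose phosphate genes was called in any of the 5 comparisons. *G6pdx*, the first enzyme of the pathway, changed by −0.32 ± 0.098 and −0.36 ± 0.098 with Dex, *Pgd*, the second NADPH-forming step, by 0.19 ± 0.11 and 0.38 ± 0.11, *Tkt*, transketolase, by 0.22 ± 0.074 and −0.01 ± 0.074, and *Taldo1*, transaldolase, by −0.36 ± 0.13 in each genotype.

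None of the gluconeogenesis genes was well above background on every array, so the sizes of their changes depend on how background was treated. The median over the 4 tested was −2.38 and −2.69 in *Sox7* (+/−) and *Sox7* (−/−) cells, −1.09 and −1.14 with normexp, and −1.63 and −1.38 with the table of processed values. Normexp with its offset and the table without background subtraction both shrink changes of dim genes. A value under 2-fold with either therefore does not decide whether such a gene changed. *Fbp1*, the liver-type fructose-1,6-bisphosphatase, read 1.62, 1.66 and 1.45 in *Sox7* (+/−) ES cells and 0.351, 0.41 and 0.323 in *Sox7* (−/−) ES cells, and was not well above background on any of the 6 XEN-like arrays. It was at least 14.4-fold (adjusted p = 5.1e-10) and at least 4.74-fold lower after Dex (adjusted p = 2.7e-09). *Fbp2*, the muscle type, went from 1.23, 1.2 and 1.16 to 0.0687, 0.0477 and 0.142 in *Sox7* (+/−) cells, where 1 of 3 XEN-like arrays was well above background. It was called lower (adjusted p = 3e-06), with a fitted −3.95 that rests in part on signals below background, against −2.10 with normexp. The *Sox7* (−/−) values were 1.32, 1.42 and 1.26, and 0.16, 0.154 and 0.0963 after Dex (9.98-fold, −3.32 ± 0.33, adjusted p = 9e-06). Both bisphosphatases thus fell in both genotypes with no overlap between the groups. *Pck1*, the cytosolic phosphoenolpyruvate carboxykinase that sets gluconeogenesis in liver and kidney, was well above background on all 3 *Sox7* (−/−) XEN-like arrays, at 0.179, 0.116 and 0.173. It was so on 1 *Sox7* (+/−) ES array (0.073, 0.0275 and 0.0433 in that group) and on no *Sox7* (+/−) XEN-like or *Sox7* (−/−) ES array. With Dex it was at least 1.68-fold higher in *Sox7* (−/−) cells (adjusted p = 5.4e-05), but the change was under 2-fold with normexp (0.73) and with the table of processed values (0.85), and the change in *Sox7* (+/−) cells was −0.53 ± 0.35. *Pck2*, the mitochondrial form, read 0.266, 0.27 and 0.257 in *Sox7* (−/−) ES cells and was not well above background after Dex, at least 3.44-fold lower (adjusted p = 0.00018), though *Pck2* changed by under 2-fold with normexp (−0.80) and with the table of processed values (−0.96). Its *Sox7* (+/−) values were 0.15, 0.195 and 0.202 before and 0.147, 0.132 and 0.0552 after Dex (−0.82 ± 0.31).

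The response to Dex itself differed between the genotypes for 8 of the 42 genes, tested as the difference of the log2 responses, *Sox7* (−/−) minus *Sox7* (+/−). Of these, 4 were higher (*Slc2a1*, *Pdk2*, *Fbp1* and *Pck1*) and 4 lower (*Pfkp*, *Pgam2*, *Ldhb* and *Pdk4*), against 6.62% and 3.17% of all probes. This split depended on the scaling: 9 genes were higher and 0 lower with spike-in scaling, and 8 higher and 1 lower with the table of processed values. Over all 25938 probes the split moved the same way, from 1718 higher and 821 lower to 3022 and 351 with spike-in scaling. With the table of processed values it was 1899 and 222. With the slide as a block, 4 of the genes were higher and 2 lower, beside 1568 and 650 of all probes. The difference equals the XEN-like comparison of the genotypes minus their ES comparison, so each gene is given with both parts. On mm9, the probes read for the genes with a higher response map to chr4:118809864-118809923 for *Slc2a1*, chr11:94887669-94887728 for *Pdk2*, chr13:62966175-62966234 for *Fbp1* and chr2:172984307-172984366 for *Pck1*. Those for the genes with a lower response map to chr13:6581718-6583872 for *Pfkp*, chr11:5701822-5703040 for *Pgam2*, chr6:142438770-142438829 for *Ldhb* and chr6:5433441-5433500 for *Pdk4*. Among ES cells alone, 5 genes were called, 3 higher in *Sox7* (−/−) cells (*Pfkp*, *Pgam2* and *Pdk4*) and 2 lower (*Pfkfb3* and *Fbp1*), against 1.95% and 6.67% of all probes. Among XEN-like cells 2 genes were called by their brightest probe, both higher in *Sox7* (−/−) cells (*Pdk2* and *Pck1*), against 3.86% higher and 3.64% lower of all probes.

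**Figure D3:**
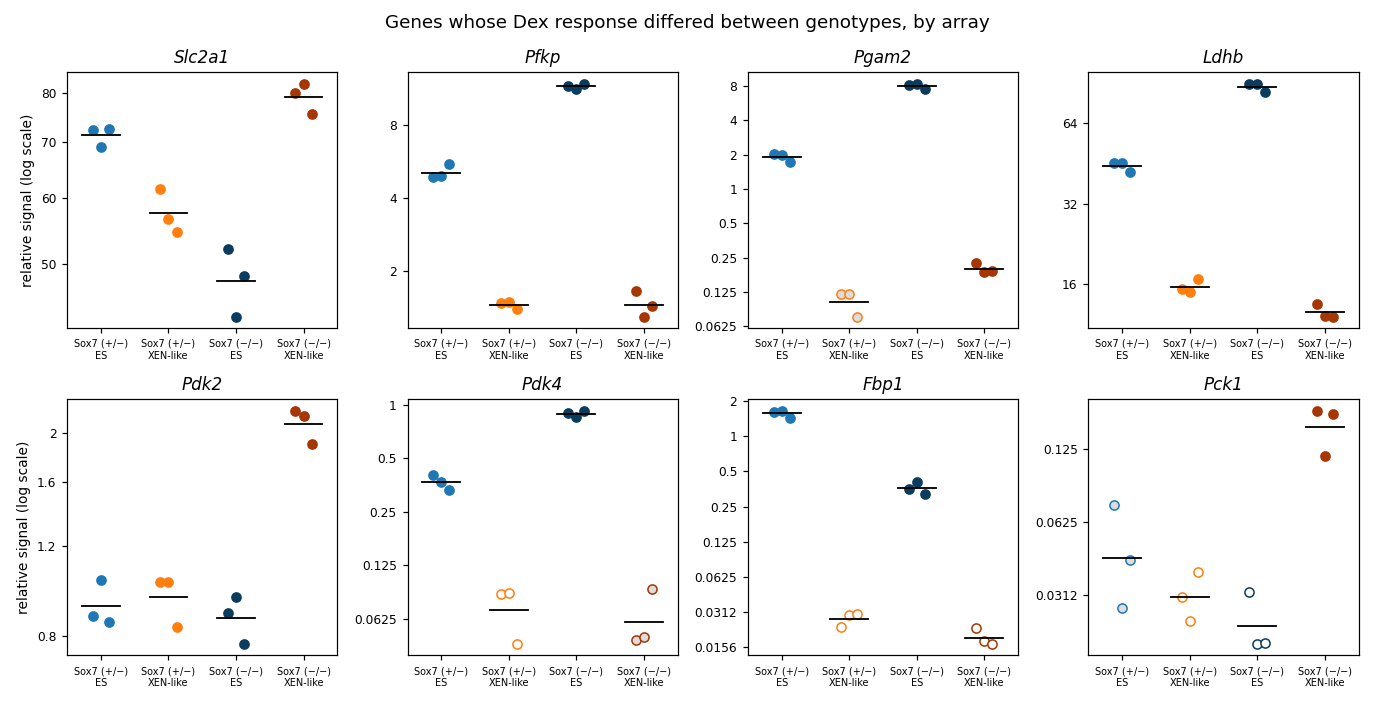
Relative signal (log scale, axes differ) of the 8 genes whose Dex response differed between genotypes, on the 12 arrays with a line at the geometric mean; filled points mark groups well above background on all 3 arrays, grey points on some and open points on none. *Pfkp*, *Pgam2*, *Ldhb* and *Pdk4* have their highest points in *Sox7* (−/−) ES cells and low ones in XEN-like cells of either genotype, while *Pdk2* and *Pck1* are high in *Sox7* (−/−) XEN-like cells.

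For the 4 genes that fell further in *Sox7* (−/−) cells, the genotypes differed in ES cells. *Ldhb* was 0.99 ± 0.075 higher in *Sox7* (−/−) ES cells, just under 2-fold, and −0.31 ± 0.075 in XEN-like cells, a difference in response of −1.30 ± 0.11 (adjusted p = 1.8e-05). For *Pfkp* the ES part was 1.18 ± 0.093 (adjusted p = 8.8e-06), the XEN-like part 0 ± 0.093 and the difference −1.18 ± 0.13 (adjusted p = 0.00014). *Pgam2* was 2.07 ± 0.16 higher in *Sox7* (−/−) ES cells (adjusted p = 9.6e-06) and 0.96 ± 0.16 in XEN-like cells, a difference of −1.11 ± 0.23 (adjusted p = 0.0064). *Pdk4* was 1.29 ± 0.29 higher in ES cells (adjusted p = 0.005), and its difference of −1.51 ± 0.41 (adjusted p = 0.021) rests on a *Sox7* (+/−) response known only as a bound. All 3 arrays of *Sox7* (−/−) ES cells lay above all 3 of *Sox7* (+/−) ES cells for each of the 4. When arrays were scaled by spike-in controls instead of by their 75th percentile, the differences became −0.91 for *Ldhb*, −0.79 for *Pfkp*, −0.71 for *Pgam2* and −1.11 (adjusted p = 0.12) for *Pdk4*, and none was called, while the median of all probes moved up by 0.40. The table of processed values ended the calls of *Ldhb* (−0.79), *Pfkp* (−0.78) and *Pdk4* (−0.94), and the mean of its probes that of *Pfkp* (−0.75). All *Sox7* (−/−) ES arrays lay on slide 1 with 1 *Sox7* (−/−) XEN-like array and the other 8 arrays on slide 2, and with the slide as a block the differences of *Pfkp* (−0.99) and *Pgam2* (−0.96, adjusted p = 0.053) were not called. The slide term of that block rests on the *Sox7* (−/−) XEN-like arrays alone, the only group on both slides. Quantile normalization ended the call of *Pgam2* (−0.92).

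*Slc2a1*, the glucose transporter of most dividing cells, changed in opposite directions in the genotypes, each time by under 2-fold. Its relative signal was 72.3, 68.9 and 72.5 in *Sox7* (+/−) ES cells and 61.4, 56.6 and 54.6 after Dex (−0.31 ± 0.082). In *Sox7* (−/−) cells it went from 52.1, 43.3 and 48.4 to 80.1, 82.1 and 75.6 (0.73 ± 0.082). No pair of groups overlapped, and the difference in response was 1.04 ± 0.12 (adjusted p = 0.00014), though neither response was called by itself. Without the second *Sox7* (−/−) ES array the difference was 0.97, under 2-fold.

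*Pdk2* and *Pck1* differed in XEN-like cells. *Pdk2* was 1.13 ± 0.12 higher in *Sox7* (−/−) XEN-like cells (2.19-fold, adjusted p = 9.3e-05) and −0.08 ± 0.12 in ES cells, a difference in response of 1.2 ± 0.17 (adjusted p = 0.00064). Its second, dimmer probe was called for the *Sox7* (−/−) response (1.06) but not for the XEN-like comparison (0.89) or the difference (0.93), and with normexp background correction the brighter probe gave 0.95 in XEN-like cells, under 2-fold. *Pck1* was at least 1.4-fold higher in *Sox7* (−/−) XEN-like cells (adjusted p = 0.00084), and its fitted difference in response of 3.26 ± 0.49 (adjusted p = 0.001) depends on signals below background. With normexp background correction that difference was 0.54 and the XEN-like comparison 0.38, neither over 2-fold, and the table of processed values gave 0.92 in XEN-like cells. Markers of several states differed in the same comparison. All 5 visceral endoderm markers that were tested (*Ttr*, *Hnf4a*, *Ihh*, *Amn* and *Cubn*) were called higher in *Sox7* (−/−) XEN-like cells. Their list had a summed relative signal of 217 to 235 against 62.9 to 63.9, while *Afp* and *Apoa1* were well above background on no array. Of the markers tested, 2 of 8 for ES cells, 2 of 5 for trophectoderm and 1 of 8 for extraembryonic endoderm were also called higher. Of 2 for blood and endothelium, 1 was lower. No parietal endoderm, mesoderm or neural ectoderm marker was called. Their part in the *Pck1* and *Pdk2* results was not tested.

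*Fbp1* had the opposite order in ES cells. It was 2.13 lower (log2 −2.13 ± 0.15, adjusted p = 3.3e-06) in *Sox7* (−/−) ES cells, and since it was below background in all XEN-like cells its difference in response, 1.59 ± 0.21 (adjusted p = 0.00039), restates that. *Pfkfb3* was also lower in *Sox7* (−/−) ES cells (−1.23 ± 0.073, adjusted p = 1.2e-06), and its difference in response, 0.88 ± 0.1, did not reach 2-fold. Markers of other states differed between the ES groups as well. The summed signal of 8 ES cell markers was 510 to 545 in *Sox7* (−/−) and 254 to 265 in *Sox7* (+/−) ES cells, that of 6 trophectoderm markers 24.3 to 26.3 against 105 or more, and that of 7 visceral endoderm markers 38 to 44.4 and 74.3 to 76.6. Such sums mostly follow the brightest probes. Of the markers tested, 3 of 8 for ES cells were called higher, against 1.95% of all probes. For trophectoderm and visceral endoderm 3 of 5 each were called lower, against 6.67%. Their part in the ES comparison was not tested. With the slide as a block, *Pfkp* in ES cells was 0.90 and *Pdk4* 1.79 (adjusted p = 0.052), neither called, while *Pgam2* was 1.84 and *Fbp1* −2.54, both called. Each ES group lay on 1 slide, so the slide term rests on 1 *Sox7* (−/−) XEN-like array against the rest of its group. *Fbp1* was well above background on none of these arrays and *Pdk4* on 1. Slide and genotype therefore cannot be told apart among ES cells. Within slide 1, the single *Sox7* (−/−) XEN-like array against the ES arrays gave −2.70 for *Ldhb*, −2.81 for *Pfkp*, −5.16 for *Pgam2*, −4.24 for *Pdk4* and 1.35 for *Pdk2*.

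By role, 10 of the 12 tested genes from aldolase to pyruvate kinase had a lower response in *Sox7* (−/−) cells, with a median difference of −0.44 against −0.09 over all probes, but only *Pgam2* was called. Under spike-in scaling the median became −0.04, with 7 of 12 lower, against 0.31 over all probes. With the table of processed values it was 0.05, against 0.24 over all probes. The sign of this group's median thus depends on the scaling, while it lay below the median of all probes each time. All 4 Pfkfb genes had a higher response in *Sox7* (−/−) cells (median 0.77), of which none was called at the 75th percentile and 3 were called with spike-in scaling. The 34 genes not called differed by −1.24 (*Pck2*) to 0.88 (*Pfkfb3*). Without the third *Sox7* (+/−) XEN-like array 10 genes were called in the difference, with *Fbp2* and *Pck2* added, and 4 among XEN-like cells with the same additions. *Pck2* then differed in response by −1.68 ± 0.19 (adjusted p = 0.00023).

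**Figure D4:**
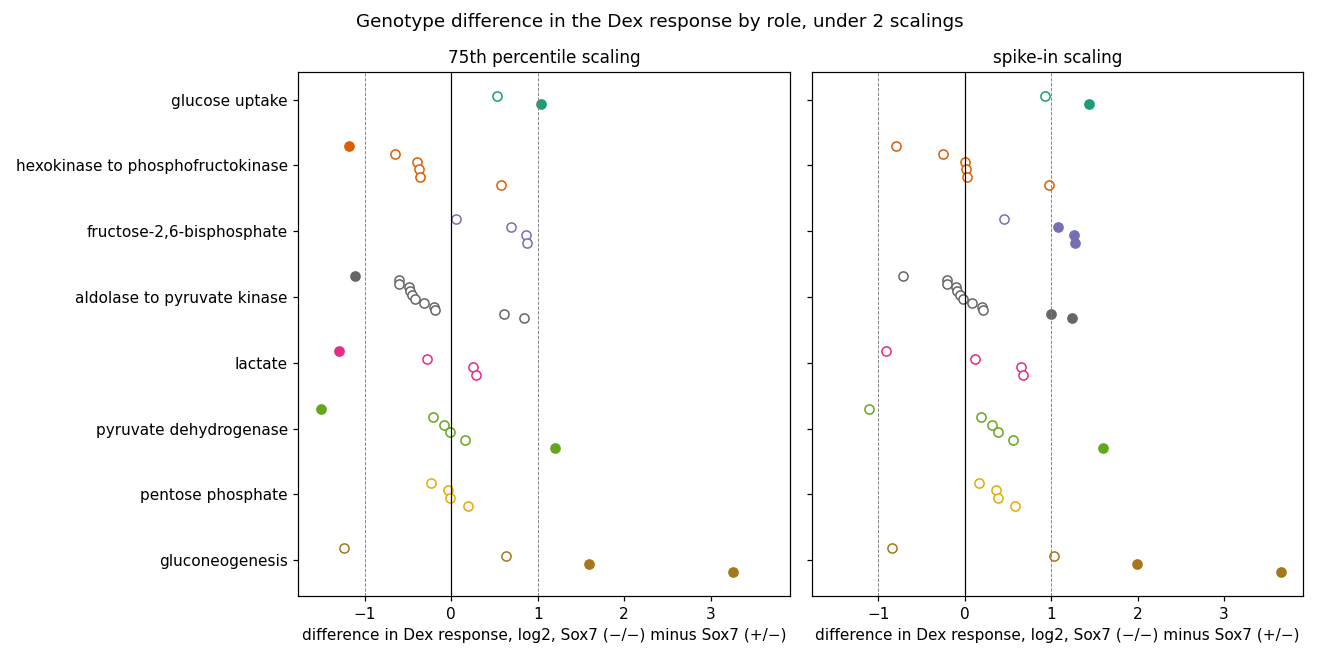
Difference between genotypes in the Dex response (log2, *Sox7* (−/−) minus *Sox7* (+/−)) of the 42 tested genes in rows by role, with arrays scaled by the 75th percentile (left) or by spike-in controls (right). Filled points are called and dashed lines mark 2-fold; the 4 filled points on the left of the first panel (−1.51 to −1.11) are open in the second, where the points lie further to the right.

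Other genes of the pathway, from a list of 62 for further transporters, glycogen, polyol, hexosamine and mitochondrial steps, were read beside the 46. Of 49 tested, 9 rose and 7 fell with Dex in *Sox7* (+/−) cells and 11 rose and 9 fell in *Sox7* (−/−) cells, that is 32.7% and 40.8% called, where 11% and 14% of all probes were higher and lower in *Sox7* (+/−) and 14.6% and 14.2% in *Sox7* (−/−) cells. *Gyg*, glycogenin, the primer of glycogen, rose from 6.35 to 6.91 up to 64.7 to 90.4 in *Sox7* (+/−) cells (3.58 ± 0.12) and by 3.57 ± 0.12 in *Sox7* (−/−) cells. *Slc2a5*, the fructose transporter, and *Ldhd*, the D-lactate dehydrogenase, were not well above background on any XEN-like array, and *Slc2a4*, the insulin-responsive transporter, fell by 2.91 and 3.21 (log2). In the difference between genotypes 2 of the 49 were higher and 3 lower, against 6.62% and 3.17% of all probes. That is 10.2% called, close to the 9.79% of all probes. *Pygl*, the liver glycogen phosphorylase, went from 1.87, 2.04 and 1.92 to 0.281, 0.267 and 0.261 with Dex in *Sox7* (+/−) cells but from 2.14, 1.89 and 2.06 to 2.83, 2.64 and 2.37 in *Sox7* (−/−) cells. The XEN-like arrays of the genotypes did not overlap, and the responses differed by 3.21 ± 0.12 (adjusted p = 1.4e-07). *Pdp1*, the phosphatase that reactivates pyruvate dehydrogenase and so opposes the Pdk kinases, had a difference of −1.63 ± 0.18 (adjusted p = 0.00012), and fell by 2.27 (log2) in *Sox7* (−/−) cells. *Akr1b3*, aldose reductase, had −1.22 ± 0.26, not called with spike-in scaling (−0.82) or the table of processed values (−0.74). *Gpd1*, glycerol-3-phosphate dehydrogenase, had −1.14 ± 0.35 from signals below background in XEN-like cells, and its call was lost with every other scaling and background treatment tried (−1.17 to −0.31) and with the slide or the replicate number as a block (adjusted p = 0.11 and 0.059).

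Hypoxia-inducible factors and their targets outside glycolysis were read from a further list: of 21 tested, 7 rose and 2 fell with Dex in each genotype, or 42.9% called, beside the same shares of all probes. *Epas1*, which encodes HIF-2α, rose from 14.2 to 16 up to 248 to 355 in *Sox7* (+/−) cells (4.37 ± 0.13, adjusted p = 1.5e-09) and by 4.56 ± 0.13 in *Sox7* (−/−) cells, while *Hif1a* changed by 0.43 ± 0.16 and 0.74 ± 0.16 and was not called. *Ndrg1* rose by 2.93 ± 0.22 and 2.89 ± 0.22. *Egln3*, a hydroxylase that marks HIF proteins for decay, rose by 2.37 ± 0.087 in *Sox7* (+/−) cells. *Hif3a* fell by 2.65 (log2) in *Sox7* (+/−) cells and changed by −0.23 ± 0.15 in *Sox7* (−/−) cells, a difference of 2.42 ± 0.21 that was not called with the mean of its probes (1.2, adjusted p = 0.054). *Car9*, a carbonic anhydrase, was not well above background on any XEN-like array and was at least 1.59-fold and 5.13-fold lower than in ES cells. *Adm*, adrenomedullin, had a fitted difference between genotypes of 3.79 ± 0.34, and was not well above background in *Sox7* (−/−) ES cells. Of 31 regulators of glycolysis and gluconeogenesis tested, 4 rose and 6 fell in *Sox7* (+/−) and 8 rose and 7 fell in *Sox7* (−/−) cells (32.3% and 48.4% called). In the difference 5 were higher and 2 lower, against 6.62% and 3.17% of all probes. *Prkaa2*, a catalytic subunit of the energy sensor AMPK, rose by 2.37 ± 0.21 and 4.04 ± 0.21. *Lin28b*, an RNA-binding protein that blocks let-7, fell by 2.01 and 3.54 (log2). *Cebpa* reached background after Dex in *Sox7* (+/−) cells, at least 1.02-fold lower. *Myc* read 1, 0.914 and 0.956 in *Sox7* (+/−) ES cells and 0.517, 0.588 and 0.665 after Dex (−0.71 ± 0.09), but 1.62, 1.65 and 1.59 and then 0.163, 0.151 and 0.159 in *Sox7* (−/−) cells (−3.36 ± 0.09). The *Myc* responses differed by −2.65 ± 0.13 (adjusted p = 6e-07). *Mycn* rose by 1.19 ± 0.068 in *Sox7* (−/−) cells and changed by 0.79 ± 0.068 in *Sox7* (+/−) cells. *Txnip*, a brake on glucose uptake, fell by 1.65 and 1.61 (log2), and *Esrrb*, an ES cell factor that also acts on energy metabolism, fell by 8.84 and 5.49 (log2). *Hnf4a* and *Pparg*, nuclear receptors that act on metabolic genes, had differences between genotypes of 2.01 ± 0.14 and 2.47 ± 0.15.

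Of 10 glucocorticoid response genes tested, 1 rose and 4 fell in *Sox7* (+/−) cells and 1 rose and 3 fell in *Sox7* (−/−) cells with Dex. The shares of all probes are as above. *Zbtb16* rose by 1.85 ± 0.32 and 1.24 ± 0.32, but was under 2-fold in both genotypes with the table of processed values (0.88 and 0.73). *Fkbp5* fell from 7.41, 7.55 and 8.06 to 1.59, 1.39 and 2.11 in *Sox7* (+/−) cells (−2.20 ± 0.13), *Mt2*, a metallothionein, fell by 4.42 and 2.81 (log2), and *Dusp1*, a phosphatase of stress kinases, by 1.82 and 1.47 (log2). These values stand beside the falls of *Pdk4* and the rise of *Pck1*, both known as glucocorticoid targets in liver. *Nr3c1*, the gene of the cells' own glucocorticoid receptor, was called lower in *Sox7* (−/−) cells, by −1.31 ± 0.088 among ES and −1.14 ± 0.088 among XEN-like cells. The mean of its probes gave −0.58 and −0.13, neither called. The part of this receptor in any of these changes was not tested.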

How the data were processed

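RNA of 12 samples was hybridised to 1-colour Agilent arrays, 3 for each of 4 groups. The authors deposited scanner files from Agilent Feature Extraction 10.7.3.1, named in the submitters' processing notes, with signal intensity per spot, background-subtracted by that software, and a table of processed values. Probe positions in the files are on mm9. The log2 values used here were computed from the deposited intensities as log2 of the processed signal minus the array's 75th percentile. Spots of a probe were averaged, control spots and outlier flags were left out, and no spot was saturated. Probes whose signal was well above background throughout some group (3 of 3 arrays) entered limma 3.58.1 (R 4.3.3), fitted over all 12 arrays, with 5 contrasts and Benjamini-Hochberg adjustment over 25938 probes. A gene was read by its brightest probe. All members are accounted for, with array values for those called between genotypes and the 12 largest Dex changes called. Of the other lists, at most 4 called genes per comparison are named by size, with *Hif1a*, *Epas1*, *Myc*, *Mycn* and *Txnip* in any case. The script was tested on simulated data. The members and lists were chosen with earlier results of these data known. Same-numbered arrays did not deviate together (correlations −0.051 to 0.13), so no pairing was used. Alternatives were normexp with an offset of 50 units, quantile and spike-in scaling, the deposited table, other filters, probe means, slide and replicate blocks, and leaving out each array.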

Additional observations from a re-analysis of the deposited data

Results flagged for a closer look

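The Dex response was called different between *Sox7* (−/−) and *Sox7* (+/−) cells in the interaction term for 20 genes named here, given as the log2 difference in response. Over all probes 9.79% were called. Of the glucose metabolism genes these were *Slc2a1* (1.04), *Pfkp* (−1.18), *Pgam2* (−1.11), *Ldhb* (−1.30), *Pdk2* (1.2), *Pdk4* (−1.51), *Fbp1* (1.59) and *Pck1* (3.26). Further pathway genes were *Pygl* (3.21), *Pdp1* (−1.63), *Akr1b3* (−1.22) and *Gpd1* (−1.14). Among hypoxia genes and regulators they were *Adm* (3.79), *Hif3a* (2.42), *Esrrb* (3.35), *Myc* (−2.65), *Pparg* (2.47) and *Hnf4a* (2.01). Among glucocorticoid response genes they were *Mt2* (1.60) and *Mt1* (1.23). The sizes for *Pdk4*, *Fbp1*, *Pck1*, *Adm* and *Gpd1* rest in part on signals below background. The calls of *Pfkp*, *Pgam2*, *Ldhb*, *Pdk4*, *Akr1b3* and *Gpd1* were lost with spike-in scaling. That of *Hif3a* was lost with the mean of its probes, and that of *Pdp1* with the table of processed values (−0.94). No test for single outlying arrays was run in these groups of 3, though the third *Sox7* (+/−) XEN-like array stood apart as described above.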

How the results depend on the processing

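No called result reversed. Requiring signal on every array left 6, 7, 1, 2 and 4 of the 10, 13, 2, 5 and 8 called genes (Dex in *Sox7* (+/−), Dex in *Sox7* (−/−), XEN-like cells, ES cells, difference). Then 36 of the 42 genes were tested, and 16.3, 21.2, 4.77, 4.4 and 6.47% of all probes were called. Dropping the 2-fold minimum gave 30, 32, 16, 21 and 22 genes, against 62.8, 65.3, 34.5, 45.1 and 27.3% of all probes. Among XEN-like cells normexp gave 0 genes and spike-in scaling 5. Of all probes 2.73% and 8.16% were then called there, against 7.5% without these changes. A slide block left 3 genes among ES cells, with 5.89% of all probes called, against 8.62% without the block. Leaving out single arrays gave 10 to 13, 13 to 14, 2 to 4, 5 to 7 and 7 to 10. In the difference, *Pdk4* was lost without the third *Sox7* (+/−) ES or the second *Sox7* (−/−) XEN-like array, *Pgam2* without the second *Sox7* (+/−) XEN-like array, and *Slc2a1* without the second *Sox7* (−/−) ES array. With the replicate block the counts were 10, 13, 2, 5 and 8, and no call of the 42 genes changed. Spike-in scaling moved the median of all probes by −0.48 (Dex in *Sox7* (+/−)) to 0.40 (difference), and the share of called probes that were higher from 44% to 18.8% and from 67.7% to 89.6%. The cause of these changes was not tested.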
